A study of Mus musculus with 16 samples.

Results

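The change in RNA between sparse, undifferentiated cultures at day 3 and denser cultures under osteogenic induction at day 7 was described in wild-type (WT) mouse cells, over all 13474 genes of the deposited table. The 8 libraries that the labels place in these groups, 4 per day, were taken from a series of 16, and the other 8, labelled knockout (KO) for Zfp384 at the same days, served for the test of a difference in response. All groups were mesenchymal stem/progenitor cells (MSPCs), adherent stromal cells from the bone marrow of C57BL/6 mice, grown in culture to passage 5 to 10. For WT day 3 (libraries 1, 1b, 3 and 4), 10000 cells had been plated per well (25 cells per mm2) in Mesencult, a medium that does not induce differentiation. For WT day 7 (libraries 9, 10, 10b and 11), 25000 cells had been plated per well (62 cells per mm2) in alpha-MEM with 10% serum, and from 48 hours the medium also held ascorbic acid (5 µg/mL), dexamethasone (10 nM) and glycerol 2-phosphate (10 mM). Day, medium, serum, supplements and plating density changed together, so their effects cannot be told apart. The series text gives 4 technical replicates of 1 biological replicate per condition, so every p-value measures only the spread between wells of 1 culture. The meaning of the b in 1b and 10b was not given in the sources used here.

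Marrow stromal progenitors can form bone, cartilage and fat cells. Commitment to bone is driven by the transcription factors Runx2 and then Sp7 (osterix), after which osteoblasts lay down type I collagen, which needs ascorbic acid for its hydroxylation, and then noncollagenous proteins such as bone sialoprotein and osteocalcin. Alkaline phosphatase, encoded by Alpl, releases phosphate from donors such as glycerol 2-phosphate, so that mineral can form. Dexamethasone binds the glucocorticoid receptor, which enters the nucleus and raises a well-known set of genes in many cell types, and dividing progenitors slow their cycling as they differentiate.

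Depth was similar across the libraries, with total counts of 36133472 to 47635039 at day 3 and 33980456 to 36528132 at day 7, and RNA integrity numbers of 9.3 to 10. Levels are given in CPM (counts scaled to a common library size, after factors from the trimmed mean of M values), and changes as log2 fold changes of day 7 against day 3 with an approximate standard error, from edgeR's quasi-likelihood test. Calls were made where the p-value, adjusted over all genes by the Benjamini-Hochberg method, was under 0.05. By that rule 9063 of the 13474 genes (67.3%) were called, 4356 (32.3%) higher and 4707 (34.9%) lower at day 7, and the median change over all genes was -0.01. At least 2-fold, 1303 genes (9.67%) were called, 793 (5.89%) higher and 510 (3.79%) lower. By 1 estimate shared by all 16 libraries, the wells of a group varied by 4.25% beyond counting error, so that small changes passed the test. Pairs of WT wells differed more at day 7 (chi-square per degree of freedom 3.56 to 5.60) than at day 3 (2.33 to 3.59). No overlap between the libraries of the days was seen for 8502 genes (63.1%). The split depends on the scaling: with the authors' own library sizes 2987 genes were called higher and 5670 lower, and the median of all genes moved to -0.10. Zfp384 itself was at 84, 80.6, 81.8 and 81 CPM in the day 3 libraries and 89.5, 87.9, 83.8 and 91.3 CPM in the day 7 libraries (log2 fold change 0.11 ± 0.04, edgeR adjusted p = 0.0096, and 0.80 with the authors' library sizes), and the groups overlapped.

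Among abundant genes without overlap between the groups, the largest rise was that of Ngfr, the p75 neurotrophin receptor and a surface marker of marrow stromal progenitors. It stood at 0, 0, 0.0407 and 0.0812 CPM in day 3 libraries 1, 1b, 3 and 4, and at 17.1, 19.9, 13.6 and 14.4 CPM in day 7 libraries 9, 10, 10b and 11. Its 5 counts over the day 3 group were close to none, against 2390 at day 7. Zbtb16, the glucocorticoid-induced transcription factor PLZF, showed the same pattern with 9 counts against 2157, as did the kinase gene Wnk2 with 6 against 1524. The phenol sulfotransferase gene Sult1a1 rose from 0.27 to 17.2 CPM, and Lgi2, which encodes a secreted protein, rose from 0.155 to 14.2 CPM. Fap, a serine protease of activated fibroblasts, was at 0.809, 0.757, 0.916 and 0.596 CPM at day 3 and 39.3, 33.8, 30.4 and 38 CPM at day 7 (log2 fold change 5.5 ± 0.13). Enpp2, which encodes autotaxin, the enzyme that makes lysophosphatidic acid, went from 1.82, 2.56, 2.28 and 2.27 CPM to 101, 100.4, 82.1 and 83.1 CPM (5.35 ± 0.11). The other genes with the highest rises were the receptor gene Tnfrsf19 (5.16), the insulin-like growth factor binding protein gene Igfbp2 (5.01), the Wnt inhibitor gene Apcdd1 (4.95), Serping1 (4.61), which encodes the complement C1 inhibitor, and Rerg (4.42), a Ras-like growth inhibitor. Adjusted p was at most 5.36e-17 for these 12 genes by edgeR.

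The steepest fall, again among abundant genes chosen for having no overlap between the groups, was that of Angptl4, a secreted inhibitor of lipoprotein lipase. Its level was 277, 287, 267 and 273 CPM in the day 3 libraries and 19.9, 19, 20.1 and 21.2 CPM in the day 7 libraries (log2 fold change -3.78 ± 0.05). Ptgs2, the inducible cyclooxygenase, went from 37.4, 37.1, 35.4 and 35.6 CPM to 7.8, 5.32, 7.35 and 6.34 CPM (-2.44 ± 0.09). Tfrc, the transferrin receptor of iron uptake, fell from 100.3, 88, 89.8 and 89.2 CPM to 16.4, 16, 16.9 and 15.4 CPM (-2.5 ± 0.09). The rest of the 12 lowest were the cartilage collagen genes Col10a1 (-3.55) and Col2a1 (-2.52), the small GTPase gene Rnd1 (-2.91), the neurotrophic ligand gene Artn (-2.75), the glutamate transporter gene Slc1a1 (-2.69), the basement membrane genes Tinagl1 (-2.45) and Lama5 (-2.29), the transcription factor gene Sox11 (-2.28) and the adhesion gene Kirrel3 (-2.26). Adjusted p was at most 8.37e-13 by edgeR for these 12 genes.

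Among the genes with the most counts, the called ones changed by small amounts. Col1a1 (0.46 ± 0.05), Col1a2 (0.64 ± 0.04) and the chemokine gene Cxcl12 (0.29 ± 0.04) rose, while the proteoglycan gene Bgn (-0.37 ± 0.03) and the actin gene Actb (-0.80 ± 0.04) fell (edgeR, adjusted p at most 6.55e-07). The most abundant genes that were not called were Eef1a1 (-0.05 ± 0.04), Fn1 (0.10 ± 0.05), Sparc (0.04 ± 0.03), Tpm1 (-0.07 ± 0.04) and Lrp1 (-0.13 ± 0.06). Genes with functions in common were then followed as 44 lists, whose members are plotted by list for the 20 with the clearest roles in such cultures. The counts of each list are to be read against the shares of all genes, 32.3% called higher and 34.9% lower, and 5.89% and 3.79% at least 2-fold. A count near these shares is no result about its list. Genes are named by a rule of size per list, and 105 of the genes named fall outside that rule and were chosen, for their known role, after their values were seen.

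**Figure D1:**
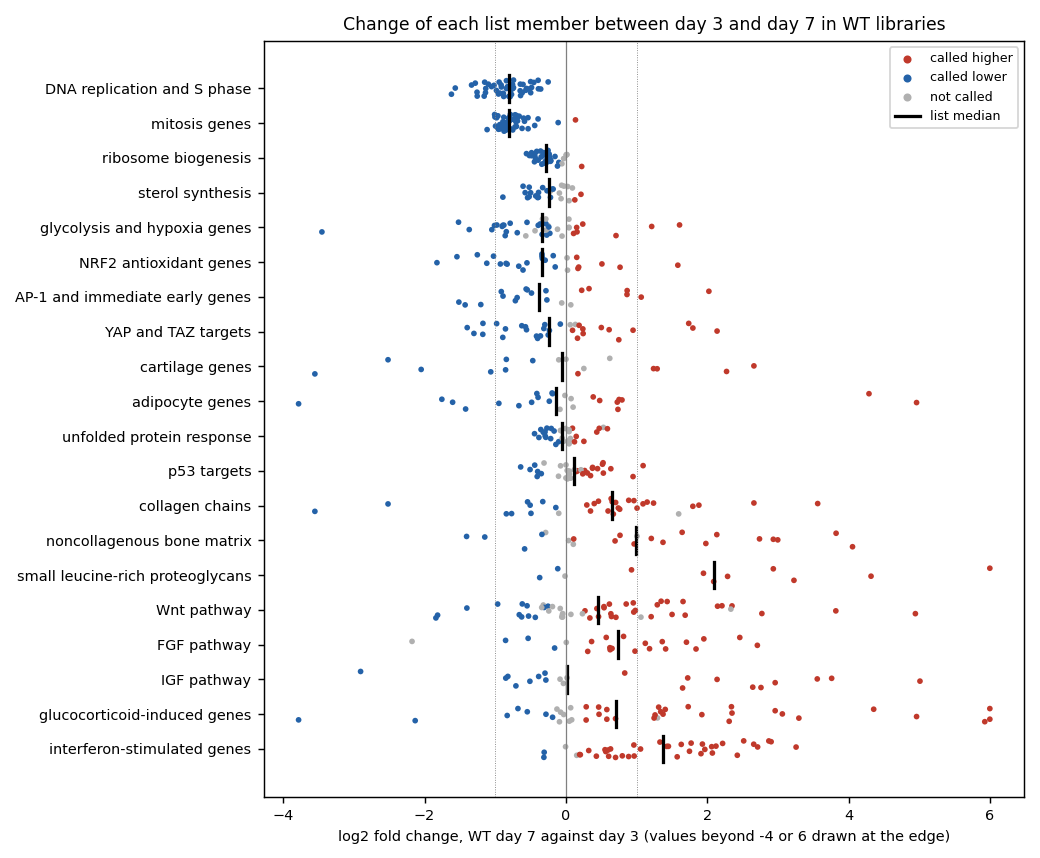
Log2 fold change of WT day 7 against WT day 3 (x axis) for each measured member of 20 gene lists (rows). Red points were called higher, blue points lower and grey points neither, at an adjusted p under 0.05; black bars mark list medians, from -0.81 for DNA replication and -0.81 for mitosis to 1.38 for interferon-stimulated genes and 2.09 for small leucine-rich proteoglycans.

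The regulators of bone formation moved by modest amounts. Of the 25 osteoblast transcription factors 15 were called higher and 7 lower (60% and 28%, beside 32.3% and 34.9% of all genes), with a median change of 0.24. Runx2, the factor that commits cells to the osteoblast lineage, was at 105, 101, 111 and 111 CPM at day 3 and 152, 142, 133 and 143 CPM at day 7 (0.41 ± 0.04, edgeR adjusted p = 5.59e-10). Sp7, which acts downstream of it, was at 75.8, 78.1, 76.5 and 80.2 CPM and then 182, 168, 157 and 183 CPM (1.15 ± 0.06, adjusted p = 3.94e-12). For both genes every day 7 library was above every day 3 library, and the gap was wider for Sp7. Rises were also seen for Dlx5 (0.57), a homeobox activator of bone genes, Mef2c (0.89) and the Wnt effector gene Tcf7 (1.21). Twist1, a known antagonist of Runx2, also rose (0.92), while Runx1 (-0.72), Twist2 (-0.37), Msx2 (-0.29) and Atf4 (-0.08, edgeR adjusted p = 0.0149, but 0.053 without library 9 and 0.056 without library 10b) fell. The partner subunit gene Cbfb was not called (0.05 ± 0.04). Zbtb16, described above, belongs to this list too.

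The proteins that osteoblasts add to collagen changed far more. Of 27 listed noncollagenous matrix genes 22 were measured, with a median of 0.98. Of these 14 were called higher and 4 lower (63.6% and 18.2%, beside 32.3% and 34.9% of all genes), 10 and 2 at least 2-fold. Ibsp, bone sialoprotein, which nucleates mineral, stood at 27.1, 28.7, 27.3 and 24.9 CPM at day 3 and 467, 464, 420.2 and 449 CPM at day 7 (4.06 ± 0.10, edgeR adjusted p = 4.03e-14). Dmp1, an acidic matrix protein of mature osteoblasts and osteocytes, was nearly silent at 0.632, 0.544, 0.753 and 0.623 CPM and reached 8.42, 8.52, 7.51 and 12.2 CPM (3.82 ± 0.28, adjusted p = 1.22e-08). In both genes all 4 day 7 libraries lay above all 4 day 3 libraries. Osteocalcin remained low: Bglap went from 0.579 ± 0.0858 to 2.58 ± 0.271 CPM and Bglap2 from 1.97 ± 0.247 to 5.11 ± 0.735 CPM (SD, n = 4), and reads of these near-identical genes may be split between them. Spp1, osteopontin, was already high at 1231, 1213, 1118 and 1099.6 CPM and rose to 1778, 1634, 1933 and 2201 CPM (0.69 ± 0.13), without overlap. Tnn, tenascin-W, a matrix protein of bone-forming regions, rose from 98.7, 102, 93.3 and 94.6 CPM to 769, 785, 726 and 822 CPM (3.0 ± 0.05). Postn, periostin, rose from 320.3, 320.4, 340.1 and 336 CPM to 2213, 2297, 2089 and 2197 CPM (2.74 ± 0.04). Also higher were Omd, osteomodulin (2.94), Mgp, an inhibitor of calcification (1.98), and Cthrc1 (1.64). Lower were the thrombospondin gene Thbs1 (-1.41), Smoc2 (-1.15) and Fbln2 (-0.59). Sparc, osteonectin, at 2855 ± 75.3 and 2929.6 ± 67.6 CPM, was not called.

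Genes of mineral formation went both ways. Of 20 measured members of the mineralisation and phosphate list 7 were called higher and 11 lower (35% and 55%, beside 32.3% and 34.9% of all genes), with a median of -0.12. The 4 that rose at least 2-fold encode enzymes. Alpl was at 129, 137, 123 and 127 CPM at day 3 and 401, 402, 355 and 406 CPM at day 7 (1.6 ± 0.11, edgeR adjusted p = 1.29e-08). Phospho1, which frees phosphate inside matrix vesicles, was at 1.44, 1.49, 1.55 and 1.52 CPM and then 5.42, 4.92, 4.19 and 5.06 CPM (1.7 ± 0.12). The groups overlapped for neither gene. Phex, an endopeptidase of phosphate balance, rose from 1.4 to 6.31 CPM (2.17 ± 0.12), and Smpd3, a sphingomyelinase needed for bone mineral, from 108 to 227 CPM (1.07 ± 0.05). By contrast, the pyrophosphate-making enzyme gene Enpp1 (-0.44), the phosphate transporter gene Slc20a1 (-0.48) and the kinase gene Fam20c (-0.49), whose product phosphorylates secreted matrix proteins, fell. Of 16 listed osteocyte markers 9 were measured, with 3 called higher, Dmp1, Phex and Irx5, and 4 lower (33.3% and 44.4%, median -0.11). Sost, Mepe and Fgf23 are not in the table analysed here. Per length, on the TPM scale, which divides counts by gene length, the levels at day 7 ran in the order Col1a1 (9619 ± 494), Spp1 (2836 ± 387), Sparc (2762 ± 39.5), Postn (1662 ± 67.6), Ibsp (573 ± 32.1) and Alpl (327 ± 22.8).

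**Figure D2:**
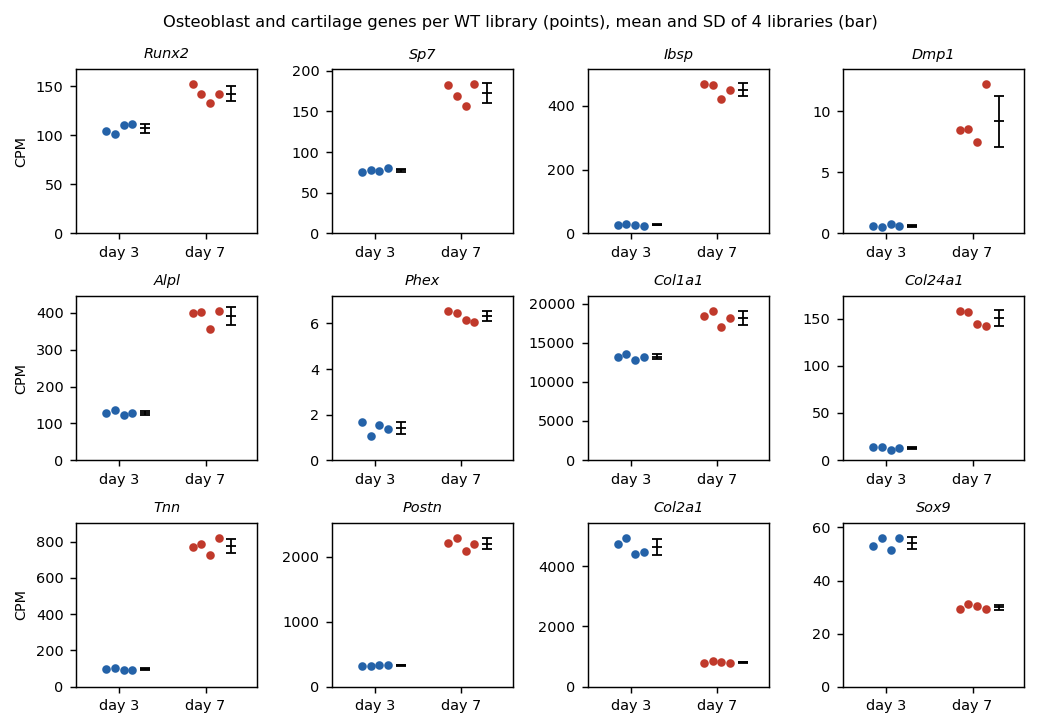
CPM (y axes, each from 0) of 12 osteoblast and cartilage genes in the 4 WT day 3 libraries (blue) and the 4 WT day 7 libraries (red), with the mean and SD of each group as a bar. Ibsp and Dmp1 lie near the axis at day 3 and average 449.7 and 9.16 CPM at day 7, Runx2 changes little, and Col2a1 and Sox9 fall.

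Promoters of the measured bone matrix genes were searched for the core letters bound by Runx factors, ACCACA on either strand. In the RefSeq promoters of the table's genes (build GRCm38.p6, 250 bases before to 50 after the annotated start) the letters stood in 4 of 13 matrix genes, Bglap, Dmp1, Sparc and Spp1, and in 12.25% of all 10161 promoters. The match is a description of these windows and not a binding site. The promoter of Dmp1 (chr5:104202367-104202666, plus strand), the gene with the largest fold change of the 4, is shown with the match in capitals.
Dmp1: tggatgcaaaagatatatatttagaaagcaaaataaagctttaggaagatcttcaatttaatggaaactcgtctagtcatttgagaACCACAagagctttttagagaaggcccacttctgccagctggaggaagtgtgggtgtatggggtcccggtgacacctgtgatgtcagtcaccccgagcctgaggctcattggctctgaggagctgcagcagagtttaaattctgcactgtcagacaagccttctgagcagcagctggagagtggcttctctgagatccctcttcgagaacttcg

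The collagen genes rose as a majority but not throughout. Of 32 measured chains 21 were called higher and 9 lower (65.6% and 28.1%, beside 32.3% and 34.9% of all genes), 8 and 2 at least 2-fold, with a median of 0.65. Col1a1, the main chain of bone collagen, was at 13219, 13568, 12747 and 13233 CPM at day 3 and 18418, 19061, 16958 and 18128 CPM at day 7, a rise of 0.46 ± 0.05 on the log2 scale that separated all libraries (edgeR adjusted p = 4.09e-09). Col24a1, a minor fibrillar chain found in bone, rose from 13.9, 13.6, 11.2 and 12.4 CPM to 158, 157, 145 and 142 CPM (3.56 ± 0.07). Further rises were those of Col8a1 (1.8), Col15a1 (1.88), Col11a1 (1.24), Col3a1 (1.15) and the 3 abundant chains of the beaded type VI filaments, Col6a1 (0.65), Col6a2 (0.76) and Col6a3 (0.96). Chains of type V, which nucleate fibrils, fell, Col5a1 (-0.50) and Col5a2 (-0.77).

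The enzymes that process collagen changed little. Of 31 measured genes of hydroxylation, folding and crosslinking 15 were called higher and 8 lower (48.4% and 25.8%), with a median of 0.08. Loxl1, a crosslinking oxidase, was the 1 that passed 2-fold (1.13 ± 0.04). The oxidase gene Lox (-0.68) and the prolyl hydroxylase gene P4ha1 (-0.55) fell, while the procollagen peptidase gene Adamts2 (0.70), Loxl2 (0.62) and the lysyl hydroxylase gene Plod2 (0.31, not called with the authors' library sizes, edgeR adjusted p = 0.10) rose. Small leucine-rich proteoglycans, which coat collagen fibrils, were a marked contrast, with a median of 2.09. Of 11 measured 8 were called higher and 2 lower (72.7% and 18.2%, beside 32.3% and 34.9% of all genes), and 7 were at least 2-fold higher. Aspn, asporin, went from 20.3, 17.3, 17.1 and 17.9 CPM to 187, 161, 168 and 163 CPM (3.23 ± 0.13). Ogn, osteoglycin, went from 327, 312, 323 and 318 CPM to 1329.5, 1097, 1271 and 1235 CPM (1.95 ± 0.10). In both genes the days did not overlap. Prelp (2.29), Ecm2 (2.09) and Fmod (0.93) also rose. Dcn, decorin, was low, with 14 counts at day 3 and 253 at day 7. Lum, lumican, had 0 counts in the 4 day 3 libraries and 186 at day 7, which is at least 70.9-fold higher than the 3 counts over 4 libraries that a count of 0 allows. Bgn, biglycan, the abundant member, fell from 4831 to 3733 CPM (-0.37 ± 0.03). The adjusted p of the named genes was at most 0.00558 by edgeR.

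Of 17 elastic fibre and microfibril genes 10 were called higher and 6 lower (58.8% and 35.3%, beside 32.3% and 34.9% of all genes, median 0.69). Rises were found in the fibrillin genes Fbn1 (0.69) and Fbn2 (1.37), in Efemp1 (1.19) and, from low levels, in elastin, Eln (15 counts at day 3 and 272 at day 7). Ltbp2 (-1.47) and Ltbp4 (-0.95), which bind fibrillin, and Emilin1 (-0.37) fell. Cartilage genes went both ways: of 16 measured 5 were called higher and 7 lower (31.25% and 43.75%), and 4 and 4 passed 2-fold. Col2a1, the main cartilage collagen, was abundant at day 3 with 4719, 4949, 4396 and 4470.1 CPM and was at 799, 844, 812 and 779 CPM at day 7 (-2.52 ± 0.07, edgeR adjusted p = 3.21e-17). Sox9, the transcription factor that drives it, was at 53, 56.1, 51.6 and 56.2 CPM and 29.1, 31, 30.6 and 29.1 CPM (-0.85 ± 0.06, adjusted p = 2.88e-13). Both fell in every day 7 library relative to every day 3 library. Acan, the defining proteoglycan of cartilage, had 0 counts in all 8 WT libraries, and Matn1 and Snorc are not in the table analysed here. Matn4 (2.27) and Comp (1.29) rose.

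Dexamethasone was among the day 7 supplements, and genes known to be glucocorticoid-induced rose in number. Of 41 measured 26 were called higher and 7 lower (63.4% and 17.1%, beside 32.3% and 34.9% of all genes), 19 and 2 of them at least 2-fold, with a median of 0.70. The summed level of the 41 was nevertheless lower at day 7, at 3785 to 3854 CPM against 4270 to 4445 CPM in the day 3 libraries. Tsc22d3, the leucine zipper protein GILZ, was at 41, 41.7, 43.2 and 44.4 CPM at day 3 and 363, 351, 351 and 358 CPM at day 7 (3.06 ± 0.04, edgeR adjusted p = 9.56e-30). Fkbp5, a co-chaperone that restrains the receptor, was at 32.8, 33.9, 33.1 and 33.1 CPM and 165, 165, 164 and 164 CPM (2.31 ± 0.03, adjusted p = 3.91e-29). Zbtb16 went from 0.0253, 0.0946, 0.0814 and 0 CPM to 15.3, 14.2, 15 and 14.3 CPM. In all 3 genes the spread within a day was small beside the gap between days. The clock gene Per1 (1.92 ± 0.05), the Krüppel-like factor genes Klf15 (4.96 ± 0.23, 19 counts at day 3) and Klf9 (1.34 ± 0.05), the efferocytosis receptor gene Mertk (2.34 ± 0.06), the feedback inhibitor gene Errfi1 (1.41 ± 0.04) and Pik3r1 (1.37 ± 0.03) rose as well. Other members known as targets did not follow: Sgk1 (-0.08 ± 0.04) was not called, and the phosphatase gene Dusp1 (-0.28 ± 0.06) fell. The gene of the receptor itself, Nr3c1 (-0.03 ± 0.04), was not called. The response to the supplement alone was not measured, since no library had dexamethasone without the other changes.

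**Figure D3:**
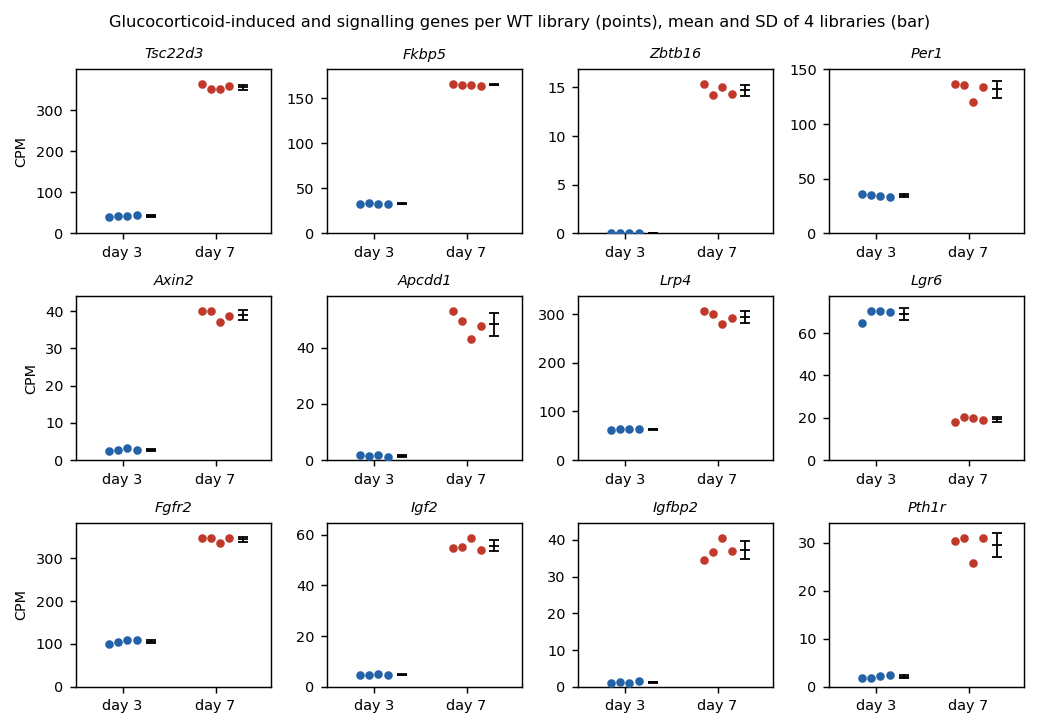
CPM (y axes, each from 0) of 12 glucocorticoid-induced, Wnt, FGF, IGF and parathyroid hormone receptor genes in the 4 WT day 3 libraries (blue) and the 4 WT day 7 libraries (red), with the mean and SD of each group as a bar. Every gene but Lgr6 is higher in each day 7 library; Lgr6 falls from 69 to 19.2 CPM.

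The letters of the glucocorticoid response element, GNACA and TGTNC with any 3 bases between them on either strand, stood in the promoters of 2 of the 31 listed genes with a RefSeq promoter, Mt1 and Fam107a, and in 0.2952% of all promoters. The window holds no more than 250 bases before the start, and such elements often lie farther away. This element and its list are textbook sets as well, so the shares are no test of the receptor. Mt1, a metallothionein gene, was at 21.5, 21, 25.1 and 24.8 CPM at day 3 and 28.3, 31.2, 27.8 and 25.5 CPM at day 7 (0.29 ± 0.08, edgeR adjusted p = 0.00272, and 0.065 with the authors' library sizes), a small change beside that of Tsc22d3. The promoter of Mt1 (chr8:94178839-94179138, plus strand) is shown as the example that carries the element, in capitals.
Mt1: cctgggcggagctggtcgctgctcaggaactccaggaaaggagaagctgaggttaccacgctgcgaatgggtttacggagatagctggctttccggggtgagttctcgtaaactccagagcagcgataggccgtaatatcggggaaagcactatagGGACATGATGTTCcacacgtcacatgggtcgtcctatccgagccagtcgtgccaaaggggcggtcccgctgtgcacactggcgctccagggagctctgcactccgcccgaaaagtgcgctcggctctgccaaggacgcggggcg

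Genes of the adipocyte, an alternative fate of these cells, went both ways. Of 24 measured 8 were called higher and 12 lower (33.3% and 50%, beside 32.3% and 34.9% of all genes), with a median of -0.14. Pparg, the master regulator of fat cells, was at 49.8, 53.9, 52.2 and 51.2 CPM at day 3 and 24.1, 28.3, 28.2 and 26.6 CPM at day 7 (-0.95 ± 0.05, edgeR adjusted p = 6.25e-16). Fabp4, the fatty acid carrier that it induces, was at 111, 109.8, 113 and 117 CPM and 34.7, 40.1, 37.9 and 35.6 CPM (-1.6 ± 0.05, adjusted p = 2.86e-21). Both were lower in every day 7 library. Cebpb (-0.67), the fatty acid receptor gene Cd36 (-1.42) and the lipid droplet genes Plin2 (-0.41) and Plin4 (-1.76) fell too. Adipoq, which encodes adiponectin and is also made by marrow stromal cells, rose from 0.135 ± 0.101 to 2.85 ± 0.195 CPM (4.29 ± 0.27). Cebpa (0.07 ± 0.05) and Lpl (0.10 ± 0.05) were not called, and Plin1 and Cidec are not in the table analysed here.

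In the Wnt pathway, which promotes bone formation, 27 of 52 measured genes were called higher and 12 lower, with a median of 0.45. The shares were 51.9% and 23.1%, beside 32.3% and 34.9% of all genes. Feedback targets led. Axin2, the scaffold that limits beta-catenin and a standard readout of the pathway, was at 2.43, 2.74, 3.13 and 2.65 CPM at day 3 and 40.1, 39.9, 37.1 and 38.8 CPM at day 7 (3.82 ± 0.08, edgeR adjusted p = 1.54e-25). Apcdd1, a membrane inhibitor of Wnt, was at 1.89, 1.44, 1.75 and 1.11 CPM and 53.1, 49.4, 43 and 47.7 CPM (4.95 ± 0.09, adjusted p = 7.62e-27). Each day 7 library was more than 10 times each day 3 library for both. The feedback genes Nkd2 (2.77), Nkd1 (1.5) and Rnf43 (1.69) rose with them, but Znrf3 (-0.43), the close relative of Rnf43, fell. Among receptors, Lrp4, a co-receptor for the inhibitor sclerostin, rose from 62.1, 63.9, 64.1 and 64.6 CPM to 307, 300.0, 279 and 291 CPM (2.21 ± 0.06). Of the R-spondin receptors Lgr5 rose (2.15) while Lgr4 (-1.4) and Lgr6 (-1.84) fell. Among ligands Wnt10a (1.43) and Wnt5a (0.64) rose and Wnt10b (-0.97) and Wnt9a (-0.66) fell. The secreted antagonists Wif1 (1.66), Sfrp1 (0.95) and Sfrp2 (0.54) rose. Lef1 (0.23 ± 0.11) and Lrp5 (-0.05 ± 0.04) were not called. The TCF letters ATCAAAG on either strand stood in 1 of 31 promoters of the list, that of the uncalled Wnt11, and in 2.411% of all.

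FGF signalling genes rose in greater proportion. Of 22 measured 17 were called higher and 3 lower (77.3% and 13.6%, beside 32.3% and 34.9% of all genes), with a median of 0.73. The receptor gene Fgfr2 was at 99.3, 105, 108 and 109 CPM at day 3 and 348, 347, 336 and 347 CPM at day 7 (1.71 ± 0.04), and Fgfr3 (2.46) and Fgfr1 (1.41) rose too. So did the feedback inhibitor genes Spry1 (2.71), Spry4 (1.18), Il17rd (1.36) and Dusp6 (0.63) and the target factor genes Etv4 (1.12) and Etv5 (0.82), whereas the ligand gene Fgf7 fell (-0.86). Of 21 IGF pathway genes 10 were called higher and 8 lower (47.6% and 38.1%, median 0.02, and -0.08 with the authors' library sizes). The growth factor gene Igf2 went from 4.62, 4.59, 5.0 and 4.66 CPM to 54.6, 55.2, 58.9 and 54.1 CPM (3.56 ± 0.07), while Igf1 (0.02 ± 0.06) and the receptor gene Igf1r (-0.08 ± 0.04) were not called. Among binding proteins Igfbp2, from 1.16 to 37.2 CPM, Igfbp3 (2.14), Igfbp5 (2.96) and Igfbp4 rose, while Igfbp6 (-0.39) and Igfbp7 (-0.51) fell. Igfbp4 went from 228, 242, 234 and 242 CPM to 747, 781, 807 and 784 CPM (1.72 ± 0.04), and the genes of proteases that cut binding proteins, Pappa (2.64) and Pappa2 (2.76), rose. The adaptor gene Irs1 rose (0.83) and Irs2 fell (-0.82). Of 27 parathyroid hormone and cAMP genes 10 were called higher and 10 lower (37% and 37%, near the shares of all genes). The highest was the hormone's receptor Pth1r, at 1.79, 1.75, 2.26 and 2.36 CPM at day 3 and 30.3, 31.1, 25.9 and 30.9 CPM at day 7 (3.85 ± 0.16). The phosphodiesterase gene Pde7b rose (3.16), and Pde4b (-2.22) and the prostaglandin receptor gene Ptger4 (-1.07) fell. Adjusted p was at most 0.000171 for the called genes named here (edgeR).

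In the BMP and TGF-beta pathway 24 of 53 measured genes were called higher and 19 lower, with a median of 0.08. The shares were 45.3% and 35.8%, beside 32.3% and 34.9% of all genes. The ligand genes Bmp4 (0.83 ± 0.05), Bmp5 (1.47 ± 0.06), Bmp2 (1.27 ± 0.22) and Gdf10 (3.64 ± 0.23) and the co-receptor gene Tgfbr3 (1.03 ± 0.03) rose. The genes known as direct BMP readouts went the other way, Id1 (-1.05 ± 0.06), Id2 (-0.65 ± 0.05), Id3 (-0.27 ± 0.05), Smad6 (-0.52 ± 0.05) and Smad7 (-0.45 ± 0.05), except Id4, which rose (1.57 ± 0.07). Grem1, a BMP antagonist, fell from 126 to 46.9 CPM (-1.43 ± 0.06), as did the activin subunit gene Inhba (-1.33 ± 0.05). Of 15 measured Notch pathway genes 5 were called higher and 3 lower (33.3% and 20%). The 1 that passed 2-fold fell, and its mean lay under 1 CPM on both days. Called members with at least 1 CPM changed by little, with Hes1 at 0.45 ± 0.08 and Jag1 at 0.40 ± 0.05.

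The cell cycle genes fell almost without exception. Of 49 genes of DNA replication and S phase all 49 were called lower, beside 34.9% of all genes, with a median of -0.81. Of 50 mitosis genes 49 were called lower and 1, Pttg1, higher (0.13 ± 0.05, edgeR adjusted p = 0.0269, but 0.082, 0.139 and 0.0565 without libraries 4, 10 and 10b and 0.587 with the authors' library sizes), with the same median of -0.81. Mcm5, a subunit of the replicative helicase, was at 169.6, 174, 160.3 and 164 CPM at day 3 and 51, 53.9, 57.2 and 63.4 CPM at day 7 (-1.57 ± 0.05, edgeR adjusted p = 9.69e-21). Rrm2, which makes deoxynucleotides, was at 449, 456, 440.4 and 446 CPM and 143, 139.7, 146 and 153 CPM (-1.62 ± 0.04). Mki67, the proliferation marker Ki-67, was at 203, 196, 199 and 211 CPM and 125, 117, 109 and 112 CPM (-0.81 ± 0.04, adjusted p = 8.9e-17). The days did not overlap in these genes, yet Mki67 stayed well above 0 at day 7. Only 13 of the replication genes and 3 of the mitosis genes passed 2-fold. The genes Cdt1 (-1.34), Mcm10 (-1.28), Orc1 (-1.26) and Cdc6 (-1.26), which prepare origins of replication, had the next largest falls after Rrm2 and Mcm5, and the processivity clamp gene Pcna fell less (-0.61). In mitosis Cdc20, the activator of the anaphase-promoting complex, was lowest, from 108, 109, 103 and 105 CPM to 53.1, 55.5, 44.6 and 42.4 CPM (-1.12 ± 0.06), and Top2a (-0.89), Ccnb1 (-0.96), Ccna2 (-0.96) and Cdk1 (-0.72) fell too. In bulk RNA fewer cycling cells and less RNA per cell cannot be told apart.

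Promoter letters known from cell cycle genes were common in these lists. The E2F letters TTTNGCGC, on either strand, stood in 10 of 40 replication promoters (25%) and in 2.46% of all 10161. The CHR letters TTTGAA, bound in mitotic promoters, stood in 32 of 42 mitosis promoters (76.2%), against 11.4% of all, and CCAAT in 34 of 42 against 38.6%. The motifs and lists are both textbook sets, so these shares describe the lists and are no test of a factor. The promoters of Mcm5 (chr8:75109259-75109558, plus strand), with its overlapping E2F matches, and of Cdc20 (chr4:118437294-118437593, minus strand), with its CHR match, are shown with the matches in capitals.
Mcm5: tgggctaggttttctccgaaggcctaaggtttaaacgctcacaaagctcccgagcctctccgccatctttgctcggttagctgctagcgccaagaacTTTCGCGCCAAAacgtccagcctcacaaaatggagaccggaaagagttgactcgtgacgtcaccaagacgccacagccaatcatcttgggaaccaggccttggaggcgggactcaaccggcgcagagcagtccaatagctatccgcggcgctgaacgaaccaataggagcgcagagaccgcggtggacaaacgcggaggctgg
Cdc20: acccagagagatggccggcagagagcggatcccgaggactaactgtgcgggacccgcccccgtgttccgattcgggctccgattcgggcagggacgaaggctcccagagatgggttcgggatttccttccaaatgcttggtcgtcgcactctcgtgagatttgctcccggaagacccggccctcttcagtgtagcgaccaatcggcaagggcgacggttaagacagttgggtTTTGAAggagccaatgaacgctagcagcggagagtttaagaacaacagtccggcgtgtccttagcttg

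The list of cycle brakes stood close to the background. Of 26 cell cycle inhibitors and D cyclins 8 were called higher and 9 lower (median -0.01). The shares were 30.8% and 34.6%, beside 32.3% and 34.9% of all genes. Cdkn2b, the inhibitor p15, was at 54.3, 55.4, 54.8 and 56.8 CPM at day 3 and 110.4, 119, 111 and 110.2 CPM at day 7 (1.03 ± 0.04, edgeR adjusted p = 2.36e-20), a clear separation. Cdkn2a rose less (0.38 ± 0.04), and Cdkn1a, p21, was not called (0.05 ± 0.04). The D cyclin genes, which push cells into the cycle, rose: Ccnd1 (0.49 ± 0.04), Ccnd2 (0.22 ± 0.03) and Ccnd3 (0.33 ± 0.04). The repressors E2f7 (-1.05) and E2f8 (-1.12), themselves E2F targets, fell. Of 33 p53 target genes 15 were called higher and 6 lower (median 0.12), in all 63.6%, beside 67.3% of all genes. Sesn1 was the 1 beyond 2-fold (1.09 ± 0.05), and Mdm2, which degrades p53, was lower (-0.41 ± 0.03). Of 15 measured replication-dependent histone genes, whose RNA mostly lacks a poly(A) tail and is poorly captured here, 1 was called higher and 5 lower (6.67% and 33.3%).

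Interferon-stimulated genes formed the list with the most uniform rise. Of 40 measured 36 were called higher and 2 lower (90% and 5%, beside 32.3% and 34.9% of all genes), 22 of them at least 2-fold higher, with a median of 1.38. Isg15, a ubiquitin-like antiviral modifier, was at 5.08, 3.93, 4.05 and 4.6 CPM at day 3 and 26.4, 34, 26.9 and 27.8 CPM at day 7 (2.71 ± 0.22, edgeR adjusted p = 8.62e-08). Ifit1, which binds foreign RNA, was at 13.7, 10.6, 8.54 and 11.9 CPM and 50.4, 50.5, 46.7 and 58.8 CPM (2.22 ± 0.16, adjusted p = 3.51e-08). Irf7, a factor that amplifies the response, was at 4.37, 4.0, 3.7 and 3.9 CPM and 14.1, 18.2, 13.9 and 14.5 CPM (1.93 ± 0.25). In the 3 genes the day 7 libraries lay above all day 3 libraries, with a wider spread between wells than in the cell cycle genes. The signal transducers Stat2 (0.89) and Irf9 (1.43), which belong to the activating complex, lay below and just above the list median of 1.38. Ifi44 (3.26), Oasl2 (2.9), Usp18 (2.87) and Rtp4 (2.43), named for their large rises, were well above it. Irf1 (-0.31) and Gbp2 (-0.31), genes more tied to interferon gamma, were the 2 that fell, and Cxcl10 (0.15 ± 0.27) and Psmb8 (-0.01 ± 0.06) were not called. Members of the Ifit, Oas and class I families share sequence, so single members are uncertain. Myeloid cells, which can carry such RNA, were traced beside it: 10 of 11 defining macrophage markers were measured, 3 were called higher and 6 lower, and their summed level was 135 to 153 CPM in the day 3 libraries and 155 to 179 CPM in the day 7 libraries. Their part in the interferon genes was not tested.

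The interferon-stimulated response element was searched as GAAA, any 2 bases and again GAAA, on either strand. It stood in 15 of the 29 listed promoters (51.7%) and in 2.93% of all. Of the listed genes called higher that have a promoter, 13 of 25 carried it, and of those called lower 1 of 2. The element and the list are both textbook sets, so these shares describe the list and are no test of a factor. The promoters of Isg15 (chr4:156200769-156201068, minus strand), with 3 overlapping matches, and of Ifit1 (chr19:34640639-34640938, plus strand), with 2, are shown with the matches in capitals.
Isg15: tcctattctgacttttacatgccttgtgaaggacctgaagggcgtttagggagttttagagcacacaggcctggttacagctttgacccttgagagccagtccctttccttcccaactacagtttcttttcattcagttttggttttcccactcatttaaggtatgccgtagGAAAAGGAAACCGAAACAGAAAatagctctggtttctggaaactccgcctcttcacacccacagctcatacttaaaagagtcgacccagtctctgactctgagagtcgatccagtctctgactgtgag
Ifit1: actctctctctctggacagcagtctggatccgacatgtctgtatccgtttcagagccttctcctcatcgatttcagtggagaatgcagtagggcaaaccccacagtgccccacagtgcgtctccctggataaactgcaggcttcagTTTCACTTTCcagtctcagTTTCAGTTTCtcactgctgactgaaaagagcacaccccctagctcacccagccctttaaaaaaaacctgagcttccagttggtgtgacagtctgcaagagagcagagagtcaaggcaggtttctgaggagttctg

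**Figure D4:**
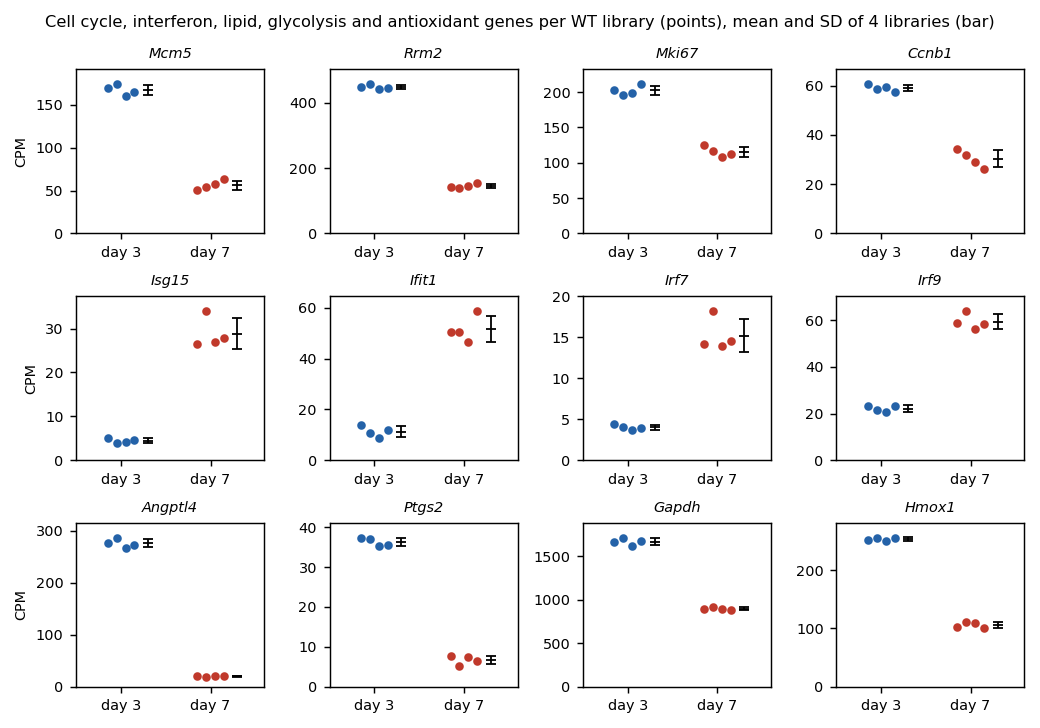
CPM (y axes, each from 0) of 12 genes of the cell cycle, interferon response, lipid and prostaglandin metabolism, glycolysis and antioxidant defence in the 4 WT day 3 libraries (blue) and the 4 WT day 7 libraries (red), with the mean and SD of each group as a bar. The interferon genes Isg15, Ifit1, Irf7 and Irf9 are higher in each day 7 library and the other 8 genes are lower.

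Inflammatory mediators did not follow the interferon genes. Of 25 measured cytokine and chemokine genes 10 were called higher and 13 lower (40% and 52%, beside 32.3% and 34.9% of all genes), 5 and 6 at least 2-fold. The monocyte-attracting chemokine genes Ccl2, from 35.2, 36.9, 32.9 and 34.6 CPM to 10.7, 10.6, 14.7 and 16.2 CPM (-1.42 ± 0.09), and Ccl7, from 112, 113, 106 and 105 CPM to 27.9, 29.2, 32.5 and 30.4 CPM (-1.86 ± 0.06), fell in every day 7 library, as did the pentraxin gene Ptx3 (-1.2) and the decoy ligand gene Il1rn (-1.11). Complement C3 rose from 1.52 to 6.11 CPM (2.0 ± 0.23). Among 21 measured genes of a wider macrophage and myeloid list 6 were called higher and 8 lower (28.6% and 38.1%). Lysozyme, Lyz2, was higher (0.51 ± 0.08) and the receptor gene Csf1r lower (-0.61 ± 0.10). Of 8 measured osteoclast markers 3 were called higher and 3 lower (37.5% and 37.5%, median 0.01), and Calcr is not in the table analysed here. The acid phosphatase gene Acp5 was among the higher (1.2 ± 0.11). Those called lower were Itgb3 (-1.12), Tnfrsf11a (-0.84) and Nfatc1 (-0.22). Of 18 listed endothelial markers 6 were measured, 2 called higher and 2 lower (33.3% and 33.3%), at a summed 14.6 to 15.6 CPM at day 3 and 11.9 to 13.3 CPM at day 7. The 1 defining endothelial marker measured was at 0.135 to 0.346 CPM and 0.439 to 0.846 CPM.

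Energy and redox genes shifted toward lower levels. Of 39 glycolysis and hypoxia genes 7 were called higher and 21 lower (17.9% and 53.8%, beside 32.3% and 34.9% of all genes, median -0.33). Gapdh was at 1656, 1712, 1613 and 1675 CPM at day 3 and 888, 916, 893 and 884 CPM at day 7 (-0.89 ± 0.06, edgeR adjusted p = 9.22e-12). The glycolytic enzyme genes Pgk1 (-1.05), Aldoa (-1.01), Pkm (-0.98), Tpi1 (-0.88) and Ldha (-0.84) fell by similar amounts, and the first enzyme of the path, Hk2, rose (0.71). The 2 members of the list that rose at least 2-fold were the hypoxia factor gene Epas1 (1.61) and the glucose transporter gene Slc2a3 (1.21), and 5 fell by that much. The lactate exporter gene Slc16a3 fell from 5.44 ± 0.459 to 0.493 ± 0.187 CPM (-3.45 ± 0.52). Pseudogene copies of glycolytic genes make their single values uncertain. Of 51 respiratory chain and ATP synthase genes 3 were called higher and 38 lower (5.88% and 74.5%), by small amounts (median -0.18). Of 25 antioxidant genes controlled by NRF2 6 were called higher and 17 lower (24% and 68%, median -0.34). Hmox1, haem oxygenase, went from 252, 255, 249 and 256 CPM to 102, 112, 109.8 and 101 CPM (-1.25 ± 0.04), and Nqo1 (-1.83), the ferritin light chain gene Ftl1 (-1.12) and the thioredoxin reductase gene Txnrd1 (-1.03) fell as well. Gclc (0.77), of glutathione synthesis, and the extracellular dismutase gene Sod3 (1.58) rose.

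Of 34 ribosome biogenesis genes 1 was called higher and 28 lower (2.94% and 82.4%, beside 32.3% and 34.9% of all genes), none by 2-fold (median -0.28). Among the lower were Nhp2 (-0.56), Nop56 (-0.49) and Rrp12 (-0.52). The 1 that rose was Myc (0.22 ± 0.04), the factor known to drive this programme. The ribosomal protein genes themselves, 55 measured, stayed near their day 3 levels (median 0.05), none changing by 2-fold. Of these 20 were called higher (2 with the authors' library sizes) and 11 lower (36.4% and 20%). Of 26 sterol synthesis genes 2 were called higher and 16 lower (7.69% and 61.5%, median -0.24), with Fdps (-0.58) among the lower. Fatty acid synthesis genes split, with 8 of 17 higher, Scd2 (0.74) and Acss2 (0.82) among them, and 7 lower (47.1% and 41.2%). Of 36 integrated stress response genes 8 were called higher and 20 lower (22.2% and 55.6%, median -0.23). The amino acid synthesis genes Asns (-0.74) and Psat1 (-0.80) and the pseudokinase gene Trib3 (-1.6) were lower. The 2 members that rose at least 2-fold were Nupr1 (1.16) and Atf3 (1.07), and 3 fell by that much. The unfolded protein response showed no change of 2-fold in any of 31 genes: 7 were called higher and 13 lower (22.6% and 41.9%). The chaperone gene Hspa5 was at 821, 823, 827 and 831 CPM at day 3 and 781, 782, 800.2 and 863 CPM at day 7 (-0.03 ± 0.04, edgeR adjusted p = 0.445), with overlap. Of 40 autophagy and lysosome genes 17 were called higher and 6 lower (median 0.07), in all 57.5%, beside 67.3% of all genes. With the authors' library sizes the medians of ribosomal protein (-0.05), fatty acid synthesis (-0.04) and lysosome genes (-0.03) turned negative. So did those of the collagen processing (-0.01), BMP and TGF-beta (-0.01), Notch (-0.03), integrin (-0.04), stromal (-0.05), IGF (-0.08) and osteoclast (-0.08) lists.

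Genes of tension and adhesion also split. Of 28 smooth muscle and contractile genes 10 were called higher and 15 lower (35.7% and 53.6%, beside 32.3% and 34.9% of all genes, median -0.13). Acta2, smooth muscle actin, was at 4217, 4365, 4261 and 4466 CPM at day 3 and 2639, 2854, 2826 and 2866 CPM at day 7 (-0.63 ± 0.04), while Mylk, the kinase of myosin light chain, rose (1.61 ± 0.04). Of 32 YAP and TAZ targets and partners 12 were called higher and 18 lower (37.5% and 56.25%, median -0.24). Amotl2 fell from 847, 860.1, 835 and 865 CPM to 317, 319, 324 and 332 CPM (-1.4 ± 0.04), and Ajuba (-1.3), Cyr61 (-0.63) and Ctgf (-0.25) were lower too. The largest change among called members with at least 1 CPM was a rise, that of Ankrd1 (1.8). At least 2-fold, 3 members of this list rose and 4 fell. Of 20 AP-1 and immediate early genes 6 were called higher and 12 lower (30% and 60%, median -0.39). Junb (-1.52), Ier3 (-1.43) and Fosl1 (-0.92) were among the lower and Fosb (2.02) among the higher. Of 42 integrin, laminin and basement membrane genes 19 were called higher and 18 lower (45.2% and 42.9%). Cdh11, the osteoblast cadherin, rose from 485, 515, 514 and 519 CPM to 1420.5, 1432, 1442 and 1473 CPM (1.5 ± 0.04), as did the collagen receptor gene Itga10 (1.92), whereas the laminin receptor gene Itga7 (-2.09) and the fibronectin receptor gene Itga5 (-0.63) fell. Of 37 metalloproteases and inhibitors 20 were called higher and 11 lower (54.1% and 29.7%). Mmp13, the collagenase of bone and cartilage, rose from 268, 289, 269 and 267 CPM to 1128, 1088, 1063 and 1002 CPM (1.97 ± 0.06), Adamts9 (2.77) and the inhibitor gene Timp3 (1.25) rose, and Timp1 fell (-0.86). The edgeR adjusted p was at most 3.06e-06 for these genes.

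Markers of the stromal progenitor and genes of the niche for blood stem cells were all measured. Of these 34 genes 16 were called higher and 15 lower (47.1% and 44.1%, beside 32.3% and 34.9% of all genes, median 0.05). Besides Ngfr and Adipoq, Lepr, the leptin receptor of perivascular stroma, rose from 9 counts to 267. Cxcl12, the chemokine that holds blood stem cells in marrow, was at 4752, 4741, 4899.9 and 4932 CPM at day 3 and 5725, 5885, 6351 and 5693 CPM at day 7, a small rise (0.29 ± 0.04, edgeR adjusted p = 6.55e-07). Kitl, stem cell factor, rose from 59.3, 59.5, 61.5 and 59.7 CPM to 139.7, 122, 135 and 135 CPM (1.15 ± 0.04). Gas6, a ligand of the Axl and Mertk receptors, rose from 343, 354, 361 and 386 CPM to 2108, 2211, 2163 and 2346 CPM (2.61 ± 0.05, adjusted p = 3.26e-26), while Axl fell (-1.18) and Mertk rose (2.34). Among factors for lymphoid and myeloid cells, Il7 (-1.68) and Csf1 (-0.80) fell. For osteoclast control, Tnfsf11, RANKL, (-0.60) and its decoy Tnfrsf11b, osteoprotegerin, (-0.48) both fell. The progenitor surface genes Ly6a (-0.69), Alcam (-0.88) and Mcam (-0.77) fell, Pdgfra rose (0.39), and Thy1 (0.14 ± 0.07) was not called. The 8 defining stromal markers were all measured, at a summed 5615 to 5802 CPM at day 3 and 6549 to 7219.7 CPM at day 7.

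Whether the response differed in the libraries labelled KO was tested gene by gene. Zfp384 RNA was not lower in those libraries (in the day 7 group 117 ± 5.03 CPM, and in WT 88.1 ± 3.17 CPM), so directions here rest on the labels, and the genotypes are also different cultures. The change from day 3 to day 7 differed between the genotypes for 8889 genes (66%). Of all genes 6119 were called in the same direction in both genotypes, 1550 in opposite directions, and 82 in opposite directions by at least 2-fold in each. Differences are given as difference of log2 fold changes, KO minus WT. Ibsp rose by 4.06 ± 0.10 in WT and by 6.43 ± 0.12 in the libraries labelled KO, a difference of 2.38 ± 0.15 (edgeR adjusted p = 2.06e-09). Bglap2 rose by 1.37 ± 0.13 in WT and 7.78 ± 0.13 in the labelled KO, where it went from 0.382 ± 0.107 to 83.6 ± 8.06 CPM (difference 6.4 ± 0.23, adjusted p = 8.38e-19). Alpl differed by 1.12 ± 0.15, Sp7 by 0.67 ± 0.09 and Col1a1 by 0.31 ± 0.07 (adjusted p at most 0.00033), each rising more in the labelled KO. The rise in WT was the larger for Axin2 (difference -2.59 ± 0.12), Postn (-1.76 ± 0.05) and Fkbp5 (-0.61 ± 0.04). Apcdd1 rose in WT and fell in the labelled KO, from 17.5 ± 0.58 to 12.3 ± 0.305 CPM (difference -5.45 ± 0.12, adjusted p = 1.79e-24). Cxcl12, a small rise in WT, fell there from 848 ± 27.5 to 149.6 ± 11 CPM (difference -2.8 ± 0.06).

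By list, the falls of replication and mitosis genes had medians of -0.81 and -0.81 in WT and -1.74 and -2.27 in the labelled KO, and the differences were called for 48 of 49 and 49 of 50 genes. Interferon-stimulated genes had a median of 1.38 in WT and 3.41 in the labelled KO, with 38 of 40 differences called. The unfolded protein response had -0.05 and 1.09, with 29 of 31, and Hspa5 went from 1434 ± 16.4 to 6912 ± 381 CPM in the labelled KO (difference 2.3 ± 0.05, edgeR adjusted p = 6.53e-24). Across all genes 66% of differences were called. The largest differences among genes that went at least 2-fold in opposite directions were those of Plin4 (difference 6.23 ± 0.18), the synaptic scaffold gene Shank2 (-5.79 ± 0.17), Col10a1 (5.59 ± 0.24) and the mitochondrial gene Chchd10 (5.57 ± 0.34), with adjusted p of at most 1.33e-14. Plin4, a lipid droplet coat gene, was at 7.78 ± 0.323 and 2.3 ± 0.67 CPM in WT and at 1.08 ± 0.0531 and 24.2 ± 2.37 CPM in the labelled KO. Shank2 was at 6.02 ± 0.489 and 14 ± 0.876 CPM in WT and at 7.26 ± 0.751 and 0.30 ± 0.0277 CPM in the labelled KO. Cyb5r2 belongs to this group too, with 10 counts at day 3 and 0 at day 7 in WT, which is at least 2.81-fold lower with the 3 counts over 4 libraries that a count of 0 allows, and 2.05 ± 0.296 and 12.3 ± 0.885 CPM in the labelled KO.

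**Figure D5:**
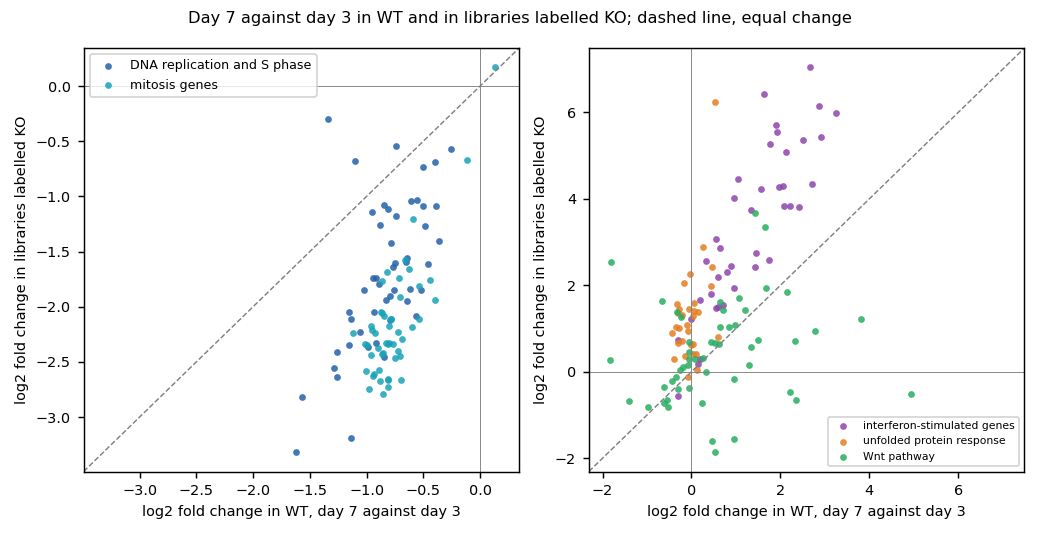
Log2 fold change of day 7 against day 3 in WT (x axis) and in libraries labelled KO (y axis) for each member of the replication and mitosis lists (left) and of the interferon, unfolded protein response and Wnt lists (right); the dashed line marks equal change. Most replication and mitosis genes lie below the line and most interferon genes above it, with list medians of 1.38 in WT and 3.41 in the labelled KO for the interferon genes.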

How the data were processed

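The authors deposited whole-number counts of reads per gene, not normalised, with gene lengths. They also deposited a scaled signal, each count column divided by 1 effective library size, which served only as an alternative. Build mm10 and the tools STAR 2.4.2a, featureCounts and edgeR stand in the submitters' processing notes without their roles. The gene annotation and the counting of reads that match several copies were not given in the sources used here. Per the labels' protocols, RNA was poly(A)-selected and read by strand.

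The fit used edgeR 4.0.16 in R 4.3.3, TMM factors, filterByExpr (which removed 0 of 13474 genes) and a robust quasi-likelihood model of 4 group means over 16 libraries, with 12 residual degrees of freedom. The contrast was WT day 7 against WT day 3, and the interaction compared it with the libraries labelled KO. P-values were adjusted by Benjamini-Hochberg over all genes. The standard error is the fold change divided by the root of the F statistic, and is unreliable at few counts. TPM were computed from the counts and the deposited gene lengths. The fit was also run on simulated counts, in which only a small share of genes was changed and the noise came from the fitted dispersion. That setting differs from these data, where 67.3% of genes were called, so it cannot vouch for the calls or the scaling.

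Members and lists were chosen with earlier results of these data known. Genes were named as Zfp384, the 12 highest and 12 lowest changes with at least 10 CPM and no overlap, up to 6 called members per list with at least 1 CPM, anchor genes, the 5 largest interactions of opposite sign, and the 5 called and 5 uncalled genes with the most counts. Of the genes named, 105 were chosen after their values were seen, as were the promoter letters. Values of some genes chosen in this way were left out. Libraries 1 and 1b (chi-square per degree of freedom 2.89) and 10 and 10b (4.74) differed by more than sampling noise, as did other pairs (2.33 to 5.60), and were kept apart. The table has 22 symbols turned into dates and 1 duplicated symbol, none named here. For a group at 0 counts the limit was set at 3 counts over its libraries, for counting error only. Alternatives were RLE factors, total counts, the authors' library sizes, no filter, at least 1 CPM in 4 libraries, DESeq2 1.42.0, the 8 WT libraries alone, libraries that share a number summed, a test against a 1.5-fold change, and leaving out each WT library.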

Additional observations from a re-analysis of the deposited data

Results flagged for a closer look

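Among 287 of the genes named, 33 of 570 groups of 4 libraries held a library set apart from the other 3, with a gap to them beyond Dixon's critical share of the group's range. Chance flags about 1 in 20 groups, and 5.79% were flagged here. No library stood out by number, and library 3 of WT day 3 had the most, 8. Values are in CPM, with the range of the other 3 libraries after each. Library 3 of WT day 3 was high for Adipoq at 0.285 (0.071 to 0.101), Igf2 at 5.0 (4.59 to 4.66) and Tnfsf11 at 4.17 (3.38 to 3.49). Library 3 of WT day 3 was low for Fdps at 190.4 (195 to 195), Junb at 102 (112 to 113), Ldha at 449 (462 to 463), Pcna at 149.6 (160.2 to 161) and Sfrp1 at 256 (275 to 278). Library 1 of WT day 3 was high for Plin4 at 8.26 (7.55 to 7.67) and Tfrc at 100.3 (88 to 89.8). Library 1 of WT day 3 was low for Alcam at 63 (66.2 to 66.8), Cdh11 at 485 (514 to 519), Ftl1 at 2089.9 (2225 to 2247), Gclc at 128 (133 to 134) and Lgr6 at 65 (70 to 70.5). Library 10b of WT day 7 was high for Ecm2 at 7.9 (5.85 to 5.94). Library 10b of WT day 7 was low for Alpl at 355 (401 to 406), Fgfr2 at 336 (347 to 348), Pth1r at 25.9 (30.3 to 31.1) and Usp18 at 13.7 (17.6 to 18). Library 10 of WT day 7 was high for Cdkn2b at 119 (110.2 to 111), Irf7 at 18.2 (13.9 to 14.5) and Trib3 at 3.44 (2.38 to 2.49). Library 9 of WT day 7 was low for Cdt1 at 23.6 (25.7 to 26) and Sult1a1 at 14.5 (17.9 to 18.3). Library 11 of WT day 7 was high for Hes1 at 12.4 (10.5 to 10.7) and Thbs1 at 2194 (1885 to 1919). Library 1b of WT day 3 was high for Inhba at 46.8 (44.8 to 45.1), Mmp13 at 289 (267 to 269) and Nhp2 at 59.7 (54 to 54.8). Library 4 of WT day 3 was high for Plin2 at 74.1 (68.2 to 69.2), Twist1 at 28.9 (27.4 to 27.7) and Wnk2 at 0.135 (0 to 0.0203).

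The change from day 3 to day 7 differed between WT and the libraries labelled KO, by the interaction test of edgeR, for each of 15 genes given for that comparison. As the log2 fold change in the labelled KO minus that in WT, it was above 0 for Ibsp (2.38), Bglap2 (6.4), Alpl (1.12), Sp7 (0.67), Col1a1 (0.31), Hspa5 (2.3), Plin4 (6.23), Col10a1 (5.59) and Chchd10 (5.57). It was below 0 for Axin2 (-2.59), Postn (-1.76), Fkbp5 (-0.61), Apcdd1 (-5.45), Cxcl12 (-2.8) and Shank2 (-5.79). The adjusted p was at most 0.00033, and the cultures differ as well as the genotype, which cannot be told apart with 1 culture per condition.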

How the results depend on the processing

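Over alternatives of scaling, filter, tool and libraries, the counts for WT day 7 against WT day 3 stayed within 1.5 times of the 9063 reported, except under a test against a 1.5-fold change (glmTreat). That test called 1872 genes, 1048 higher and 824 lower, and 2794 genes for the genotype by day interaction, since it asks for a larger change. Leaving out each WT library in turn gave 8592 to 8743 called genes, and DESeq2 gave 9016. The authors' library sizes left 34.5% of calls higher against 48.1% as reported, and 8657 calls in all. Among 411 genes followed, 130 lost their call in the test against 1.5-fold, 5 lost and 8 gained their call with those sizes, and 8 gained it in a fit of the 8 WT libraries alone, Cebpa, Lpl and Cdkn1a among them. No gene turned its direction while called. Uncalled genes near the threshold, Fn1, Lrp1, Eef1a1, Lef1, Igf1r, Sgk1 and Thy1, were called under 2 or more alternatives, and Hspa5 with the authors' sizes (adjusted p = 0.0440), as were Tpm1 and Lrp5. The cause of these shifts was not tested. No gene was removed by the filter, so the fit without it was the same.

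No paired analysis was possible because the replicate numbers of the labels are not shared between the groups. With 1 culture per condition, the spread between animals or cultures cannot be read from these libraries. A change of dexamethasone, ascorbic acid, serum, density or day cannot be told apart. Genes with few counts at day 3, such as Ngfr, Wnk2, Zbtb16 and Lepr, have imprecise fold changes, and intervals between wells cover technical spread alone.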
